A study of Mus musculus with 36 samples.

Results

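The peripheral blood of A/J mice was compared with that of C3H/HeJ mice, 2 related inbred strains, in RNA from which globin mRNA had been depleted. The comparison held 3 arrays of A/J and 3 of C3H/HeJ, chosen by the strain and preparation in their titles, out of 36 Affymetrix arrays in all. The full set covered 18 untreated male mice of 6 strains, 3 per strain, aged 8 weeks. They had been bought at 7 weeks and kept in single cages for 1 week. Blood was drawn from the heart under isoflurane into EDTA and then Trizol LS. Each mouse gave 1 array of whole RNA and 1 of RNA treated with GLOBINclear, a kit that captures alpha and beta globin mRNA, from 10 µg of total RNA. The 3 A/J mice and the 3 C3H/HeJ mice therefore also had whole RNA arrays, which re-measured the same extracts and served to check directions. Each array gave 1 log2 expression summary for each probe set, and a difference is A/J minus C3H/HeJ unless stated.

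Inbred strains differ in the alleles they carry, and in blood a strain difference can come from the genes themselves or from the mix of cells. In bulk blood, fewer cells of a type and less RNA per cell cannot be told apart. The region best known to separate these strains is H2, the mouse major histocompatibility complex, in which the class I genes H2-K and H2-D present peptides to CD8 T cells and to natural killer cells, and the class II genes present peptides to CD4 T cells. C3H/HeJ carries the k haplotype throughout. A/J carries the a haplotype, a recombinant with k alleles at H2-K and class II and d alleles from class III to H2-D. DBA/2J, another strain of the series, carries d at all of these genes. The alleles of class I genes differ at many bases, so array probes made for 1 allele can miss another.

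The arrays carried the RNAs of blood. The erythroid gene list averaged between 9.09 and 9.37 on the 6 arrays and the platelet list between 9.11 and 9.70. The lists of T cell, B cell, natural killer, monocyte and neutrophil markers averaged from 3.47 (natural killer list, A/J replicate 3) to 6.33 (monocyte list, C3H/HeJ replicate 1). Averages over different probe sets do not rank amounts of RNA. Arrays of A/J correlated with each other at 0.984 or above and arrays of C3H/HeJ at 0.973 or above, while between the strains the correlation ran from 0.939 to 0.975. None of 16 quality measures over both preparations passed an exact two-sided permutation test, which with 3 mice against 3 cannot go below p = 0.1. The mean of the adult globin probe sets was the one at that limit in both preparations (in GLOBINclear RNA 9.79 ± 0.13 in A/J and 10.09 ± 0.05 in C3H/HeJ, SD, n = 3, exact p = 0.1, adjusted 0.8). That mean includes 1 alpha globin set, described below, that differed by -2.14.

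With limma, 135 of 11353 tested genes (1.19%) differed between the strains at an adjusted p under 0.05, 76 higher in A/J (0.669%) and 59 higher in C3H/HeJ (0.520%). At least 2-fold differences made up 63 of the former and 51 of the latter. At an unadjusted p under 0.05 there were 1115 genes. The arrays of the strains did not overlap for any of the 135, against 2642 of all tested genes (23.3%). By probe set, 259 of 22518 (1.15%) were called, of which 42 had no single gene symbol. The count changed with the arrays in the fit: leaving out any 1 of the 6 arrays left 38 to 51 genes higher in A/J and 36 to 50 higher in C3H/HeJ. On the same genes, A/J against C57Bl/6J gave 700 calls (6.17%) and C3H/HeJ against C57Bl/6J gave 487 (4.29%). These comparisons share arrays with the one described here.

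The promoters of H2-K1 and H2-D1 are shown first, because probe sets of H2-D1 gave the 2 largest differences among sets with a gene symbol and H2-K1 is its class I counterpart at the other end of the region. The sequences are the 250 bases before the annotated start in RefSeq's GRCm38.p6, whose reference animal is C57BL/6J and so carries neither strain's alleles. Capitals mark GGGATTCC, the core of an NF-kB-like site, and TTTCACTT, the core of an interferon-response-like site, each searched on both strands.
H2-K1, chr17:34000334-34000583, minus strand: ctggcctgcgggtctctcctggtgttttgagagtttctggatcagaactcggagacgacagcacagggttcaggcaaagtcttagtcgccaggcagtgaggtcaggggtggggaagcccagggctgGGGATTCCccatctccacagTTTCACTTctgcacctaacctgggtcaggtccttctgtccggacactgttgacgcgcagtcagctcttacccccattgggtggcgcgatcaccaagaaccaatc
H2-D1, chr17:35262844-35263093, plus strand: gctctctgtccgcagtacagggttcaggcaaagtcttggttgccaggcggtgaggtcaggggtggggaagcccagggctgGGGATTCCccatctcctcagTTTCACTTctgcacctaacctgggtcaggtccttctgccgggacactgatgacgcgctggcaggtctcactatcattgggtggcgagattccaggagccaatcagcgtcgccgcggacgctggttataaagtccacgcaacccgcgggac
The windows shared a run of 47 bases and held 1 match to each motif. Over 32851 promoter windows of the same length, 0.889% held GGGATTCC and 1.36% held TTTCACTT. A match describes the letters and shows no binding.

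H2-D1 was represented by 8 tested probe sets, and they split by direction. Set 1425614_x_at read 10.55, 9.56 and 9.70 in A/J and 3.25, 3.25 and 3.22 in C3H/HeJ, a difference of 6.70 (SE 0.23, limma adjusted p = 1.57e-10). Set 1452544_x_at read 11.00, 10.13 and 10.28 in A/J against 4.67, 4.52 and 4.85 in C3H/HeJ (difference 5.79). Set 1427651_x_at gave 10.32, 9.29 and 9.34 in A/J against 3.80, 4.64 and 3.95 in C3H/HeJ (difference 5.52). All 3 lay between 3.22 and 4.85 in C3H/HeJ and at 9.29 or above in every A/J mouse. Set 1450170_x_at ran the other way, at 5.06, 4.36 and 4.60 in A/J and 9.83, 9.41 and 9.28 in C3H/HeJ (difference -4.83, SE 0.22, limma adjusted p = 3.61e-09). Sets 1451683_x_at, 1425545_x_at and 1451784_x_at, the last of which is the brightest and stands for the gene, were higher in A/J by 2.18, 2.16 and 1.85. In a fit of the 6 arrays alone the call on 1451784_x_at was lost (H2-D1, adjusted p = 0.074). Set 1426324_at differed by 0.73 and did not pass (adjusted p = 0.68).

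The other strains showed the same split of the H2-D1 sets. DBA/2J averaged 9.92 on set 1425614_x_at and 10.55 on set 1452544_x_at, at the A/J level, while 129S1/ImJ, C57Bl/6J and FVB/NJ averaged between 3.18 and 3.28 on the first and between 3.49 and 3.57 on the second. Set 1450170_x_at was high in C3H/HeJ only, with the other 4 strains between 4.56 and 4.67. On the 3 sets that read d-carrying strains high, and on the 1 set that read C3H/HeJ high, all 3 mice of each strain fell on the same side in whole RNA too, with differences of 4.98, 5.57, 3.77 and -3.45. These 4 sets were called under all 15 other settings tried on them. The level of H2-D1 mRNA in the strains cannot be read from sets that disagree in sign, and whether probe sequence accounts for the split was not tested.

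H2-K1, which is of k type in both strains, was called through 1 of its 4 tested probe sets. Set 1451931_x_at read 10.21, 9.30 and 8.96 in A/J and 7.20, 6.28 and 7.22 in C3H/HeJ, a difference of 2.59 (SE 0.35, limma adjusted p = 0.000746). It was still higher in the other strains, at 10.25 in DBA/2J and between 11.04 and 11.15 in 129S1/ImJ, C57Bl/6J and FVB/NJ. The other 3 sets of H2-K1 differed by -0.42, -0.07 and 0.05 and did not pass, and with the mean of a gene's probe sets in place of the brightest one H2-K1 lost its call (adjusted p = 0.63). The suffix _x_at marks a set with probes that also match other transcripts. H2-K1 and H2-D1 are closely similar copies, so the assignment of these sets to one gene is uncertain.

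**Figure D1:**
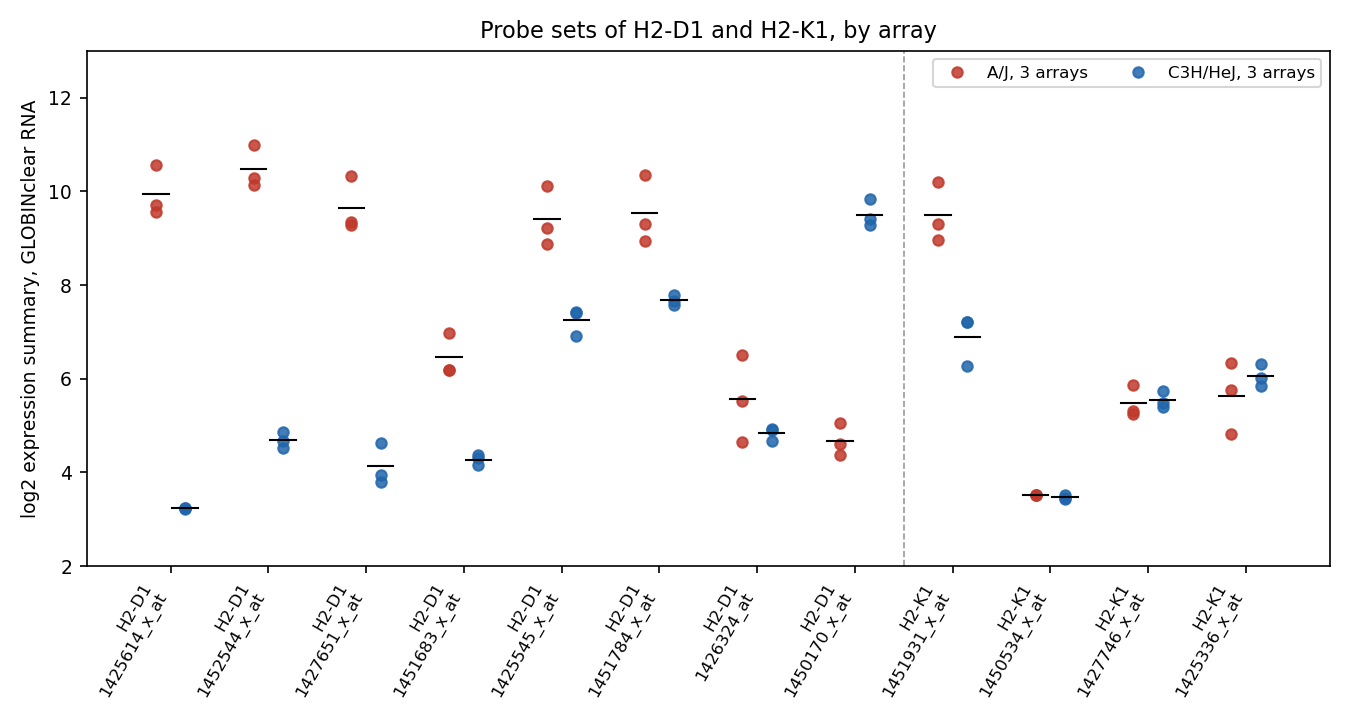
Log2 expression summaries of GLOBINclear RNA (vertical axis) for the 8 tested probe sets of H2-D1 and the 4 of H2-K1 (horizontal axis), with 3 arrays per strain as points and their mean as a bar. Of the H2-D1 sets, 6 lie higher in A/J with no overlap, set 1450170_x_at lies at 9.28 to 9.83 in C3H/HeJ and at 4.36 to 5.06 in A/J, and 1 of the H2-K1 sets separates the strains.

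By gene, each list of the H2 region held 1 call or none, beside 1.19% of all tested genes. Of the 25 tested genes at the K end and in class II, 1 was called (H2-K1), with a median difference of -0.46 against 0.03 over all tested genes. That median was -0.21 without A/J replicate 3, -0.27 without C3H/HeJ replicate 1 and -0.07 in whole RNA. In class III, where A/J and C3H/HeJ carry different haplotypes, none of the 31 tested genes was called by limma, and their median was -0.08 (-0.15 without A/J replicate 1 and -0.02 without A/J replicate 3). Complement factor C2 differed by 0.54 (adjusted p = 0.14) and Cfb by -0.24 (adjusted p = 0.38). Of the 28 genes from H2-D to the M end, H2-D1 alone was called, with a median of 0.02 (-0.04 without A/J replicate 1). The class II genes, made by B cells, monocytes and dendritic cells and named here for their role, did not pass: H2-Aa -0.92, H2-Ab1 -0.65 and H2-Eb1 -1.10 (adjusted p of 0.71, 0.72 and 0.67).

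Among genes read from 1 probe set each, the largest difference was that of Hbegf, which encodes a membrane-bound ligand of the epidermal growth factor receptor. It read 2.17, 2.20 and 2.22 in A/J and 7.74, 7.60 and 8.04 in C3H/HeJ, a difference of -5.60 (SE 0.08, limma adjusted p = 6.1e-16). This SE pools the spread of all 6 strains, while the SD was 0.02 in A/J and 0.22 in C3H/HeJ. In a fit of the 6 arrays alone the limma adjusted p was 0.000302. Set 1415793_at, which had no gene symbol, differed by -7.66. All A/J arrays of Hbegf lay at the bottom of the scale, where a level carries background, and so did the means of the other 4 strains. These levels are under the filter's log2 2.89. Hbegf was thus tested through its C3H/HeJ arrays and was bound to differ. Ppp1r21, a regulatory partner of protein phosphatase 1, read 3.11, 2.68 and 2.46 in A/J and 7.38, 8.40 and 8.89 in C3H/HeJ (difference -5.47, SE 0.53). Redrum, a long noncoding RNA of red cell precursors, read 3.06, 3.12 and 3.23 in A/J and 8.55, 8.07 and 8.81 in C3H/HeJ (difference -5.34, SE 0.28). The means of the other 4 strains ran from 2.89 to 3.87 for Ppp1r21 and from 3.06 to 4.16 for Redrum. All 3 genes were bright in C3H/HeJ alone of the 6 strains.

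Josd2, a deubiquitinating enzyme, was also higher in C3H/HeJ, at 10.06, 9.93 and 10.16 against 6.54, 5.29 and 6.28 in A/J (difference -4.01, SE 0.51). Mndal, a nuclear DNA-binding member of the interferon-inducible Ifi200 family, read 3.13, 3.19 and 3.16 in A/J and 7.15, 6.58 and 7.01 in C3H/HeJ (difference -3.75, SE 0.46, limma adjusted p = 0.000342). A second set of Mndal was also called, at -2.70. In both genes the high level recurred in other strains: Josd2 averaged 9.56 in 129S1/ImJ and 9.62 in FVB/NJ, and Mndal averaged 7.50 in 129S1/ImJ and 7.30 in C57Bl/6J but 3.20 in DBA/2J and 3.16 in FVB/NJ. The other 6 tested members of the Ifi200 list differed by -0.09 to 0.26 and none passed.

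Atp6v0b, a membrane subunit of the proton pump that acidifies lysosomes, read 6.42, 6.44 and 6.32 in A/J and 9.17, 9.46 and 9.88 in C3H/HeJ (difference -3.11), and both of its other probe sets were called the same way. Xpr1, a phosphate exporter that also serves as a retrovirus receptor, read 4.65, 4.43 and 4.37 against 7.58, 6.99 and 7.82 (difference -2.97), while its other set differed by 0.10. Palld, an actin-bundling protein, read 3.85, 3.97 and 4.25 against 7.09, 6.98 and 7.11 (difference -3.04). C3H/HeJ was the highest of the 6 strains for Atp6v0b and Xpr1, and A/J the lowest for Palld. Dut, the enzyme that keeps uracil out of DNA, read 2.77, 3.01 and 2.72 in A/J and 5.80, 5.54 and 5.75 in C3H/HeJ (difference -2.87). Rubcn, a regulator of autophagy, read 2.92, 2.83 and 2.85 against 5.78, 5.24 and 6.10 (difference -2.84). In each of these 5 genes the strains did not overlap, and all were called in every leave-out of 1 array.

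Among the genes higher in A/J, Atf2, a transcription factor of the stress-activated kinase pathways, read 8.38, 7.91 and 8.15 against 4.75, 3.85 and 4.15 in C3H/HeJ (difference 3.90, SE 0.51). Its 4 other probe sets differed by 0.05 to 1.17 and none was called. Emb, embigin, a membrane partner of monocarboxylate transporters, read 8.74, 9.26 and 9.04 against 5.46, 5.51 and 5.08 (difference 3.66, SE 0.54). Gpaa1, a subunit of the enzyme complex that attaches GPI anchors to proteins, read 6.68, 6.81 and 7.06 against 3.52, 2.94 and 3.54 (difference 3.51, SE 0.28), but its other set differed by -0.52. The mean of Emb was highest in A/J of all 6 strains, while DBA/2J averaged 6.69 for Gpaa1.

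Cd59a, a GPI-anchored protein that protects red cells from the membrane attack complex of complement, read 9.86, 9.97 and 9.90 in A/J and 6.37, 6.19 and 7.23 in C3H/HeJ. The difference was 3.31 (SE 0.38, limma adjusted p = 0.00018), its second set gave 3.28, and whole RNA gave 3.72. A/J was highest and DBA/2J next at 9.34, and 129S1/ImJ was lowest at 4.84. Srp14, a subunit of the signal recognition particle that carries secretory proteins to the endoplasmic reticulum, read 10.95, 10.96 and 11.04 against 8.06, 7.82 and 8.05 (difference 3.01, SE 0.37). All 3 of its other sets were called in the same direction, at 2.41 to 3.29. Capn3, a calcium-dependent protease best known from muscle, read 6.43, 6.72 and 6.87 against 3.40, 3.94 and 3.14 (difference 3.18), and its other set was called at 1.62.

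Nomo1, an endoplasmic reticulum membrane protein, was higher in A/J by 2.59, Acyp2, an acylphosphatase, by 2.58, and Angpt1, the ligand that activates the receptor Tie2, by 2.54. C3H/HeJ was the lowest of the 6 strains for Nomo1 and Angpt1. Cfap57 (2.88) and Ccdc189 (2.82) completed the 12 largest, but their calls depended on single arrays. Cfap57 lost its call without A/J replicate 2 or 3 or C3H/HeJ replicate 1 or 3 (adjusted p up to 0.072), and Ccdc189 lost it without any 1 of the 6 (up to 0.12), without the filter on dim sets (0.066) and with the replicate block (0.060).

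**Figure D2:**
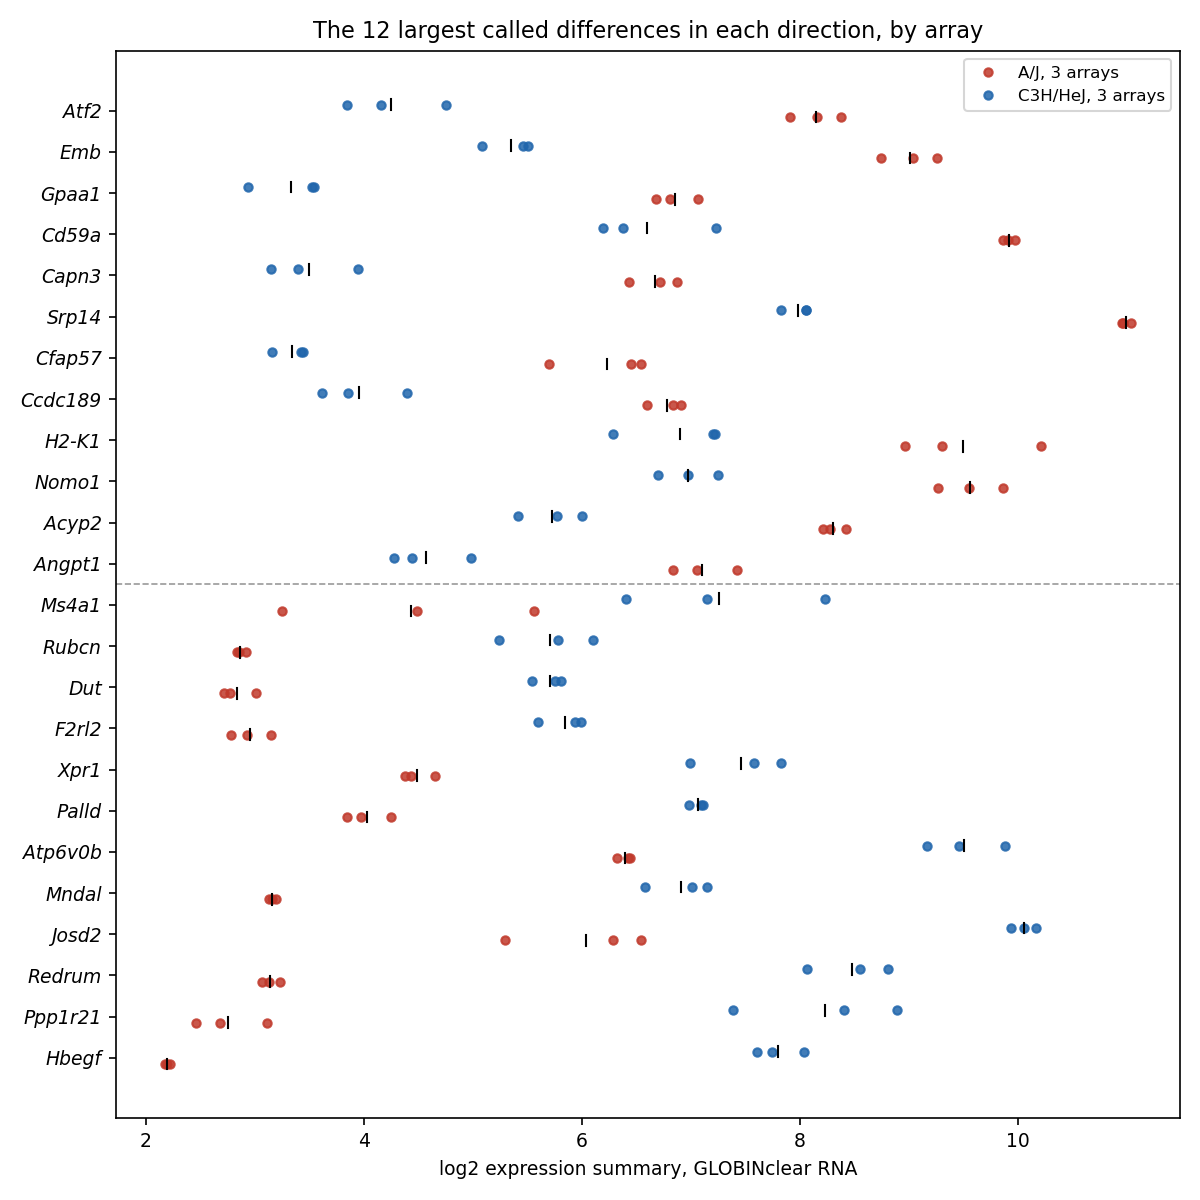
Log2 expression summaries of GLOBINclear RNA (horizontal axis) for the 12 genes with the largest called difference in each direction (vertical axis), with 3 arrays per strain as points and their mean as a bar. The strains do not overlap for any of the 24 genes, and the A/J arrays of Hbegf sit at 2.17 to 2.22.

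**Figure D3:**
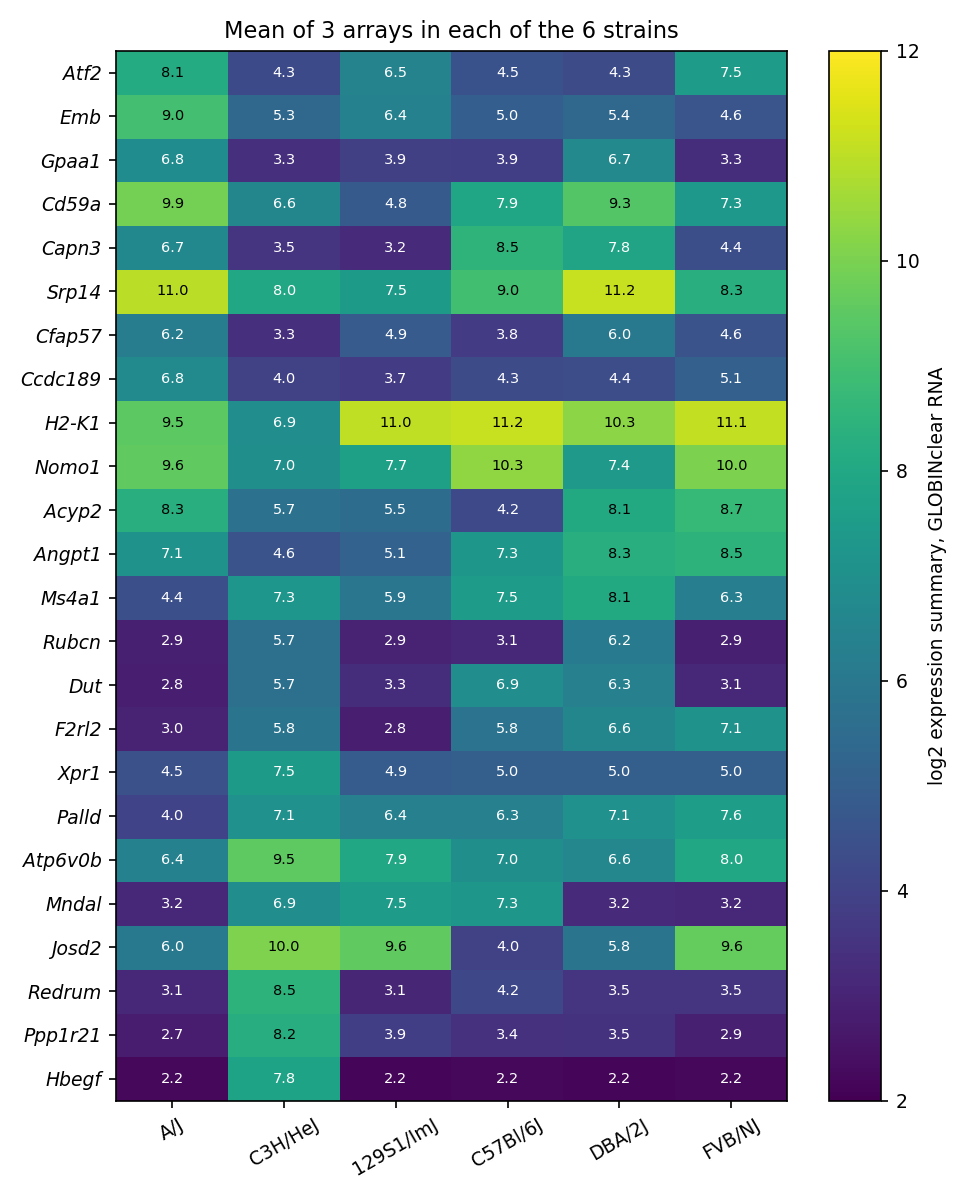
Mean log2 expression summary over 3 GLOBINclear arrays of each of the 6 strains (columns) for the same 24 genes (rows), with colour and printed value on 1 scale. Hbegf, Redrum and Ppp1r21 are bright in C3H/HeJ alone, whereas Mndal, Josd2 and Srp14 take high and low levels in several strains.

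Set against the other 4 strains, the mean of A/J alone lay outside their range in 45 of the 135 genes (33.3%), that of C3H/HeJ alone in 32 (23.7%), both in 40 (29.6%) and neither in 18 (13.3%). Over all tested genes these shares were 30.6%, 14.3%, 18.0% and 37.1%. The choice of genes that differ between the strains raises the shares outside the range, so they describe the 135 genes only. Srp14, Capn3, Acyp2, F2rl2 and Rubcn were among the 18 with both means inside that range.

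In each of the 3 lists of red cell genes 1 gene passed the test, beside 1.19% of all tested genes. Of the 24 tested genes of the red cell membrane and cytoskeleton, 1 was called (Cd59a), and the median was 0.07 (0.31 without C3H/HeJ replicate 3 and 0.02 without C3H/HeJ replicate 1). Among the 34 other erythroid genes Redrum alone was called, against the direction of the list's median of 0.13 (0.28 without C3H/HeJ replicate 3). Of the heme synthesis genes 1 of 13 was called, Abcb10, a mitochondrial transporter, at 6.20, 6.40 and 6.55 in A/J and 4.50, 4.58 and 5.83 in C3H/HeJ (difference 1.41, SE 0.32, limma adjusted p = 0.0427). It was lost on leaving out any 1 array but C3H/HeJ replicate 3 (adjusted p up to 0.22), in a fit of the 6 arrays alone (0.16), without the filter on dim sets (0.089), after quantile normalization (0.057) and with the replicate block (0.057). Epb42, protein 4.2 of the red cell skeleton, differed by 0.84 and Cat, the catalase that is abundant in red cells, by 0.56 without passing (adjusted p of 0.53 and 0.11). Sox6, a transcription factor needed for red cell maturation, chosen after its values were seen, was higher in A/J by 2.13.

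Globin itself held a probe-level difference. Set 1417714_x_at, which matches both alpha globin genes Hba-a1 and Hba-a2, read 12.39, 12.41 and 12.61 in A/J and 14.55, 14.79 and 14.48 in C3H/HeJ, a difference of -2.14 (SE 0.13, limma adjusted p = 6.72e-08). In whole RNA the difference was -1.32. FVB/NJ read 14.48, at the C3H/HeJ level, and the other 3 strains read 12.54 to 12.80. The other shared alpha globin sets, 1428361_x_at and 1452757_s_at, differed by 0.07 and -0.06 and did not pass. The difference in the mean of the globin sets given above includes set 1417714_x_at, the largest difference among the sets averaged and the only one called. The other tested globin sets differed in both directions, by -0.46 to 0.61, and none passed (limma adjusted p of 0.66 or above). Whether probe sequence accounts for the difference on set 1417714_x_at was not tested.

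Platelet genes gave 2 calls among 27 tested, both higher in C3H/HeJ, beside 1.19% called of all tested genes. Their median was -0.32, or -0.16 without A/J replicate 2. F2rl2, the thrombin receptor PAR3 of mouse platelets, read 3.15, 2.93 and 2.78 in A/J and 5.94, 5.60 and 5.99 in C3H/HeJ (difference -2.89, SE 0.20, limma adjusted p = 5.18e-07), while its other set differed by 0.08. The level was low in 129S1/ImJ too, at 2.84, and between 5.82 and 7.15 in the other 3 strains. Thbs1, thrombospondin of the platelet granules, read 7.80, 6.67 and 7.04 in A/J and 9.11, 8.68 and 8.85 in C3H/HeJ (difference -1.71, adjusted p = 0.0153) and was lost without A/J replicate 2 or 3 or C3H/HeJ replicate 1 or 3 (up to 0.087), in a fit of the 6 arrays alone (0.064) and with the mean of its probe sets (0.052). Pf4, a chemokine of platelet granules, differed by 0.33 and did not pass (adjusted p = 0.11). The platelet list averaged 9.11 to 9.48 in A/J and 9.50 to 9.70 in C3H/HeJ.

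Most markers of neutrophils, monocytes and B cells had a difference nominally below 0, and 3 of 78 passed the test. Over all tested genes 4776 of 11353 were nominally below 0 and 1.19% passed. Among 24 neutrophil markers 20 were nominally below 0, with a median of -1.0, and 1 was called: Pglyrp1, a peptidoglycan-binding protein of granules, at 3.09, 2.85 and 3.20 in A/J and 5.39, 5.79 and 5.08 in C3H/HeJ (difference -2.38, adjusted p = 0.0146). It was lost without A/J replicate 1 or 2 or C3H/HeJ replicate 1 or 2 (up to 0.077). Itgam, the integrin CD11b, and S100a8, an alarmin, differed by -1.06 and -1.55 and did not pass (adjusted p of 0.3 and 0.45). The neutrophil list averaged 4.15 to 4.54 in A/J and 5.18 to 5.46 in C3H/HeJ, without overlap. Other lists did not overlap either, among them the monocyte, platelet and oxidative phosphorylation lists. The ribosomal protein list did so in the other direction. In whole RNA its median was -0.23.

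Of 28 monocyte markers 25 were nominally below 0, with a median of -0.74, and Treml4, a receptor of blood monocytes, was called at 3.31, 3.22 and 3.34 in A/J and 4.23, 4.26 and 3.86 in C3H/HeJ (difference -0.82, adjusted p = 0.00506, lost under spike-in centring at 0.14). That median rested largely on C3H/HeJ replicate 1, whose monocyte list averaged 6.33 against 5.17 and 5.13 in replicates 2 and 3 and 4.62 to 4.96 in A/J: without it the median was -0.32. Mpeg1, perforin-2 of macrophages, differed by -2.39 (adjusted p = 0.085). Among 26 B cell markers 25 were below 0, with a median of -0.54, -0.35 without C3H/HeJ replicate 1, -0.34 without A/J replicate 3 and -0.89 without C3H/HeJ replicate 2. Ms4a1, which encodes CD20, was called at 4.49, 5.56 and 3.25 in A/J and 8.22, 6.40 and 7.14 in C3H/HeJ (difference -2.83, adjusted p = 0.0477), lost without A/J replicate 1 or 3 or C3H/HeJ replicate 1 or 3 (up to 0.26). Ms4a1 also lost its call in a fit of the 6 arrays alone (0.13), without the filter on dim sets (0.11), under median centring (0.057) or spike-in centring (0.12), without the intensity trend (0.061) and with the mean of its probe sets (0.27). Its other set differed by -0.51 and did not pass. The B cell lists of the strains overlapped, at 4.28 to 5.18 in A/J and 4.92 to 6.20 in C3H/HeJ.

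No T cell marker was called of 26 (median -0.31, or -0.49 without A/J replicate 1), and none of 17 natural killer markers (median -0.0020, or -0.18 without C3H/HeJ replicate 3). No Fc receptor was called of 11 (median -0.57, or -0.37 without C3H/HeJ replicate 1). Of all tested genes 1.19% were called, and at that share lists this short can hold no call. Slpi, a protease inhibitor of neutrophil granules and epithelia, was higher in C3H/HeJ by 2.38 (limma adjusted p = 0.0446). Hcst, the adaptor DAP10 of natural killer and T cells, was higher there by 1.59 (limma adjusted p = 0.0143). Both were named after their values were seen, and neither kept its call under all 16 settings of the GLOBINclear arrays. The part of cell composition in the white cell differences was not tested.

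**Figure D4:**
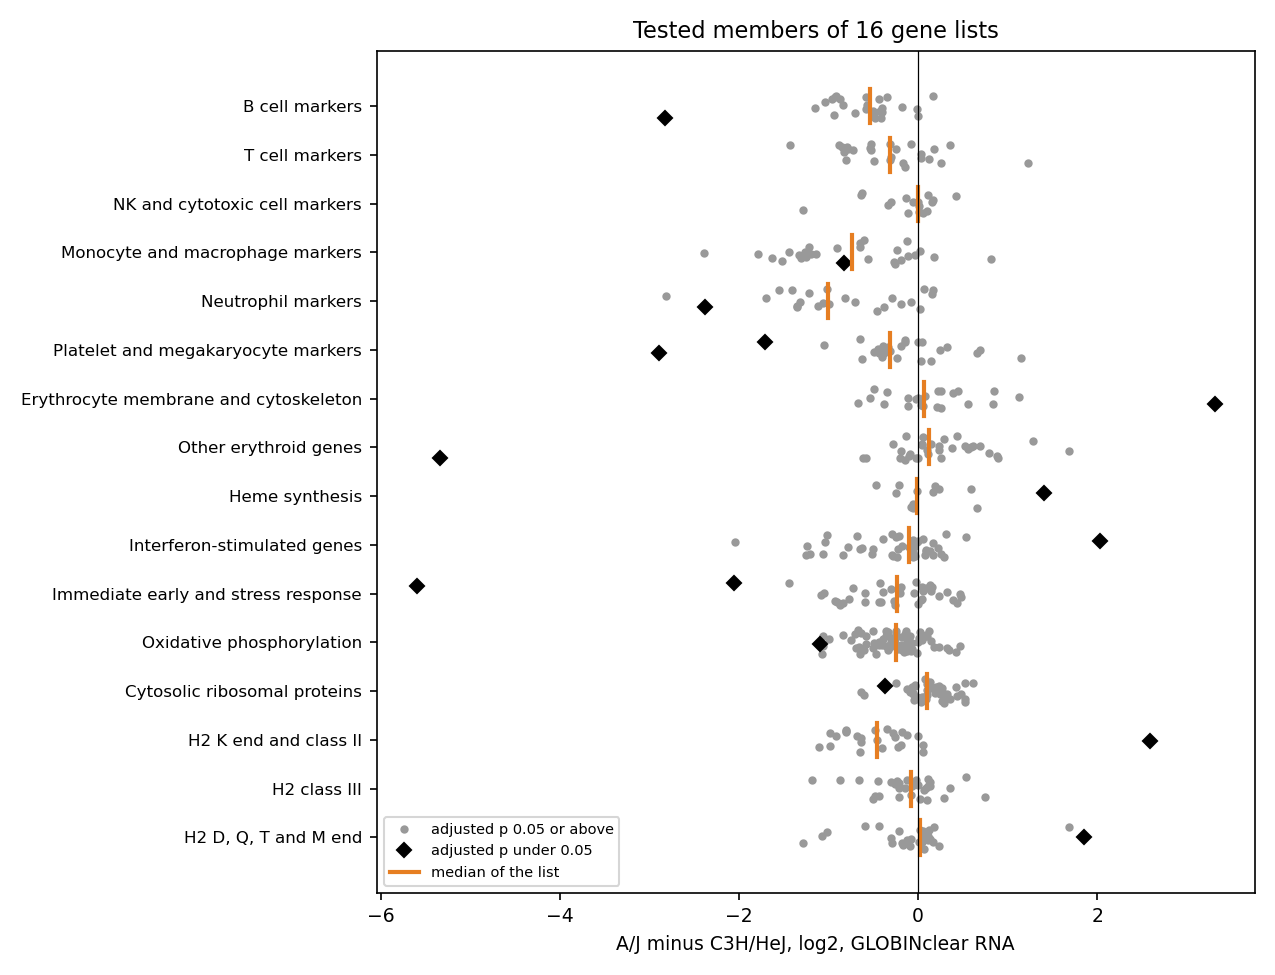
A/J minus C3H/HeJ on the log2 scale in GLOBINclear RNA (horizontal axis) for the tested members of 16 gene lists (rows), with grey points for members that did not pass, black diamonds for called members and an orange bar at the list's median. Neutrophil, monocyte and B cell markers lie mostly to the left of 0 (medians -1.0, -0.74 and -0.54), with 1 called member each.

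Interferon-stimulated genes had 1 call among 47 tested, higher in A/J, beside 1.19% of all tested genes. Ifit2, which binds viral RNA, read 7.97, 7.75 and 8.32 in A/J and 5.79, 6.08 and 6.08 in C3H/HeJ (difference 2.03, adjusted p = 0.0148), while the median of the 47 tested genes was -0.10, or -0.27 without A/J replicate 1. Parp12 and Oas1a, an antiviral RNA sensor, differed by -0.68 and -0.84 and did not pass (adjusted p of 0.081 and 0.097). Ifit2 was lost without any array but A/J replicate 2 (up to 0.093). Of the immediate early and stress genes 2 of 40 were called, beside 1.19% of all tested genes. They were Hbegf, which was tested through its C3H/HeJ arrays, and Dusp6, a phosphatase that turns off ERK kinases. Dusp6 read 4.36, 3.85 and 3.83 in A/J and 6.93, 5.83 and 5.44 in C3H/HeJ (difference -2.05, adjusted p = 0.0143) and was lost without A/J replicate 2 or 3 or C3H/HeJ replicate 1 (up to 0.079), in a fit of the 6 arrays alone (0.072) and under spike-in centring (0.076). The median of the list was -0.24, -0.0046 without C3H/HeJ replicate 1 and -0.36 without C3H/HeJ replicate 3.

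Among the housekeeping lists, oxidative phosphorylation genes were nominally below 0 in 56 of 71 cases, with a median of -0.25, where all tested genes had 4776 of 11353 below 0. The list is brighter than most genes, averaging 7.70 in A/J and 7.98 in C3H/HeJ. Over the 4161 genes with a GLOBINclear mean above log2 4 the median difference was itself below 0, at -0.11. Of the 71, only Atp5e, a subunit of ATP synthase, was called (difference -1.09, adjusted p = 0.0322), against 1.19% of all tested genes. It was lost without any array but A/J replicate 3 (up to 0.15) and without the filter on dim sets (0.066). Among 41 ribosomal protein genes Rps14 was called at -0.36 (SE 0.06), while the median of the list was 0.10. Rps14 lost its call under spike-in centring (adjusted p = 0.97), with robust eBayes (0.056) and without C3H/HeJ replicate 3 (0.051). Of 26 glutathione and redox genes Gstm5, a glutathione transferase, was called at -0.68 (adjusted p = 0.0373), lost without any array but A/J replicate 3 (up to 0.18), in a fit of the 6 arrays alone (0.091), without the filter on dim sets (0.054) and under spike-in centring (0.28). None of the 41 proteasome genes (median -0.23) or 31 cell cycle genes (median 0.07) passed. The proteasome median was -0.05 without C3H/HeJ replicate 1 and -0.42 without C3H/HeJ replicate 2, and the cell cycle median 0.13 without C3H/HeJ replicate 3 and 0.05 without A/J replicate 3.

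Among genes with alleles known to differ between laboratory strains, 2 of 31 tested were called, beside 1.19% of all tested genes. They were Cd59a and H2-D1, both already counted in lists above. Tlr4, the endotoxin receptor in which C3H/HeJ has its well-known missense mutation, read 2.84, 2.91 and 2.94 in A/J and 3.61, 2.92 and 2.88 in C3H/HeJ and did not pass (difference -0.24, adjusted p = 0.67). Glo1, the glyoxalase duplicated in some strains, differed by 0.63 (adjusted p = 0.68). Dysf, the muscle gene interrupted in A/J, and Naip5, the Legionella resistance gene, were too dim to be tested. No gene of the endotoxin and Toll-like receptor list (22 tested), the Naip and Nlr list (11), the natural killer receptor complex (21), the Gimap GTPases (8) or the Trim5-like cluster (7) was called.

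Several called genes lay next to each other. Of the 134 called genes that could be placed in RefSeq's gene order, 7 (5.22%) had a called gene as a nearest tested neighbour, against 265 of 11285 tested genes (2.35%). In the largest group, which was defined after the data were seen as called genes with at most 5 tested genes between them, Acyp2 (2.58), Asb3 (1.82) and Chac2 (2.44) were higher in A/J while Erlec1, between Acyp2 and Asb3, was lower (-1.85). Erlec1, an endoplasmic reticulum lectin, read 7.06, 6.97 and 7.23 in A/J and 8.90, 8.97 and 8.95 in C3H/HeJ. Chac2, an enzyme that breaks down glutathione, read 8.40, 8.92 and 8.71 against 5.84, 6.18 and 6.69. Enpp4 and Clic5, with no tested gene between them, were both higher in A/J, by 2.10 and 2.35. The pair Dut (-2.87) and Eid1 (1.50), and the pair Thbs1 (-1.71) and Srp14 (3.01), lay close together and differed in opposite directions. Eid1, an inhibitor of p300-dependent differentiation, lost its call without A/J replicate 2 or C3H/HeJ replicate 2 or 3 (adjusted p up to 0.085), under spike-in centring (0.079) and with the mean of its probe sets (0.10).

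In whole RNA 52 genes (0.458%) were called between the strains, 30 higher in A/J and 22 higher in C3H/HeJ. Leaving out 1 array left 31 to 51, the fewest without C3H/HeJ replicate 2 and 34 without C3H/HeJ replicate 3. Of the 135 genes called in GLOBINclear RNA, 130 had the same direction in whole RNA and 37 were also called there, which is 27.4% of the GLOBINclear calls and 71.2% of the whole RNA calls. The difference was smaller in size in whole RNA in 105 of the 135. These genes were chosen by their GLOBINclear difference, which favours a smaller one in whole RNA, so the count describes the 135 only. The 5 genes of opposite direction were Snhg4, Lysmd3, Cxcl3, Pik3c3 and Mad2l2, named here as all members of that count, and their whole RNA differences lay between -0.19 and 0.01. Because the arrays of both preparations came from the same mice and extracts, the whole RNA values repeat the measurement and are not independent of it.

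The strain difference itself depended on the preparation in 40 of all tested genes (0.352%), by a limma test of each mouse's GLOBINclear minus whole value, and 27 of these were among the 135. The 135 were chosen by GLOBINclear values that also enter this test, which favours such an overlap. Without 1 mouse the count was 22 to 34: 22 without A/J replicate 3, 25 without C3H/HeJ replicate 1 or 2 and 24 without C3H/HeJ replicate 3. Hbegf fell from a strain difference of -5.60 in GLOBINclear RNA to -3.55 in whole RNA, Rbks, a ribokinase, from -2.12 to -0.41, and Redrum from -5.34 to -2.68. Palld, a difference of -3.04 in GLOBINclear RNA, was -0.38 in whole RNA, and Clic5, an intracellular chloride channel protein, went from 2.35 to 0.14. Both strains read low in whole RNA, at 3.53 in A/J and 3.91 in C3H/HeJ for Palld and 3.19 and 3.05 for Clic5. The part of the bottom of the scale in these changes was not tested. Genes whose difference held in whole RNA included Emb (3.92), Cd59a (3.72), Srp14 (3.61), Josd2 (-4.26) and Atp6v0b (-3.80).

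**Figure D5:**
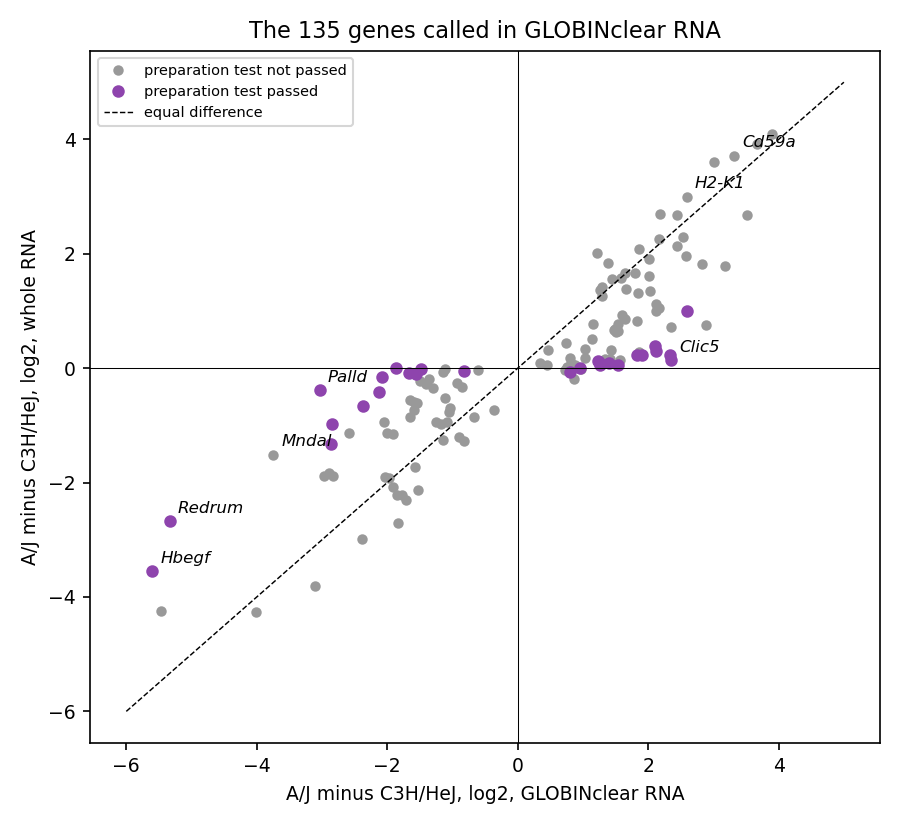
A/J minus C3H/HeJ on the log2 scale in whole RNA (vertical axis) against that in GLOBINclear RNA (horizontal axis) for the 135 genes called in GLOBINclear RNA, with the line of equal difference and in purple the genes whose difference depended on the preparation. Most points lie nearer to 0 in whole RNA (105 of 135), which the choice of genes by their GLOBINclear difference favours. Hbegf sits at -5.60 and -3.55.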

How the data were processed

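The authors deposited log2 values for 45101 probe sets on 36 arrays, and the log2 scale was inferred from their range. GCRMA, MAS5 and affy are named, per the submitters' processing notes, without version or order. Not given in the sources used here were hybridization day and scanner.

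The 64 control sets were left out of the tests, and a set was tested where its average over the 36 arrays exceeded the median of such averages (log2 2.89), 22518 sets in all. The platform's annotation named the genes, and each gene was read from its brightest set with 1 symbol (11353 tested of 18193). The main fit (limma 3.58.1 in R 4.3.3, the data.table package, version 1.17.8, eBayes with trend) used the 18 GLOBINclear arrays with 1 mean per strain, 12 residual degrees of freedom, and Benjamini-Hochberg adjustment over the tested probe sets at 0.05. The labels do not say whether mice shared litters, so p-values measure the spread between these mice. The number of arrays limits the precision.

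Named were the 12 largest differences of each direction, called members of 32 gene lists, members with the largest moderated t (at most 3 of a list) and the 3 genes most dependent on preparation. Members and lists were chosen with earlier results of these data known. A member that passed the filter through 1 bright strain was bound to differ, so counts and medians of lists are descriptions. Replicate numbers were checked as pairs: deviations of same-numbered arrays correlated at 0.34, -0.05 and 0.20 in GLOBINclear RNA and at 0.37, 0.12 and 0.16 in whole RNA. Same-numbered mice of different strains were not taken as pairs in the main fit of either preparation. Promoters and gene order come from RefSeq's GRCm38.p6. Other filters, scalings, fits and arrays were tried as alternatives. The fit was tested on simulated data. Figures were drawn with python 3.11.15, pandas 2.3.3 and matplotlib 3.10.9.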

Additional observations from a re-analysis of the deposited data

Results flagged for a closer look

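The strain difference of 14 named genes differed between GLOBINclear and whole RNA by a limma test of each mouse's GLOBINclear minus whole value (40 of 11353 tested genes passed). The values that follow are the GLOBINclear strain difference minus the whole RNA strain difference, on the log2 scale. Among genes higher in C3H/HeJ, the value was -2.05 for Hbegf (SE 0.10, adjusted p = 3.06e-08), -2.66 for Redrum, -2.66 for Palld and -1.87 for Rubcn. It was -1.71 for Rbks, -1.72 for Pglyrp1, -1.53 for Dut and -0.78 for Treml4. Among genes higher in A/J, it was 2.21 for Clic5 (SE 0.31, adjusted p = 0.00259), 2.09 for Mettl15, 1.72 for Enpp4, 1.59 for Asb3, 1.58 for Nomo1 and 1.30 for Zfp131. In each of the 14 the difference was larger in GLOBINclear RNA. Named genes were chosen among those called in GLOBINclear RNA, which favours that direction, so this describes the 14 only. In 6 of them one strain's mean lay under log2 3 in GLOBINclear RNA. In whole RNA both strains could read low, as for Clic5 (3.19 in A/J and 3.05 in C3H/HeJ), Mettl15 (3.21 and 2.97) and Zfp131 (3.20 and 3.11). Nomo1 did not (7.79 and 6.79). The part of the bottom of the scale in these values was not tested.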

How the results depend on the processing

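Beside 76 genes higher in A/J and 59 higher in C3H/HeJ, fitting only the arrays of the 2 strains gave 102 and 95, with 4 residual degrees of freedom. Spike-in centring gave 48 and 39, and the whole RNA arrays 30 and 22. The causes were not tested. Other filters, scalings and fits on GLOBINclear RNA stayed within 1.5 times of both counts. Leaving out 1 array gave 38 to 51 and 36 to 50, with the spread taken from all 6 strains, 31 to 51 in whole RNA and 22 to 34 for the dependence on preparation (the last 2 kinds were added after seeing the data). Of the 135 genes, 42 were called under all 16 settings of the GLOBINclear arrays, and 9 more under every one of these that tested them. Of 52 genes followed one by one, none changed direction under any alternative, whole RNA included, and 34 kept their call in all 6 leave-outs. The split into higher and lower moved by over 10 percentage points in 1 leave-out, to 43.2% higher in A/J against 56.3%, without C3H/HeJ replicate 2. With the replicate block the counts were 61 and 59, in whole RNA 43 instead of 52, and for the preparation 40, unchanged. In GLOBINclear RNA 3 of 6 arrays, and in whole RNA 4 of 6, correlated best with the array of their own number. The median of all genes stayed within 0.05 of 0 under each scaling, but was -0.11 over the 4161 genes with a GLOBINclear mean above log2 4.

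Only 3 mice per strain, the bottom of the scale (47 of the 135 genes have 1 strain under log2 3.5) and probes that may match 1 allele limit what a difference shows. Of the 71 called genes with another tested probe set, 28 had at least 1 other set called the same way and 43 had no other set called. H2-D1, among the 28, also had 1 set called the opposite way.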
